A study of Amaranthus palmeri with 48 samples.

Results

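The genes described here are 127 gene models of Amaranthus palmeri (Palmer amaranth), a weed of row crops, whose RNA was higher in leaves sprayed with atrazine and stayed near the untreated level after 2,4-D, chlorsulfuron and lactofen. They were chosen by their measured values. A gene had to reach 1 CPM (the count scaled to a fixed library total) in each of the 18 untreated libraries and to average under 1000 CPM there. Its atrazine difference, the mean log2(CPM + 1) of treated libraries minus that of untreated libraries of the same line and batch, averaged over both lines, had to be at least 0.8. Its difference after each of 2,4-D, chlorsulfuron and lactofen had to lie within 0.5 of 0 in either direction. The rule allowed up to 200 genes and 127 met it, of 14303 that passed the level conditions and 26353 in the table. All 127 are listed as mRNA, as are 14299 of the 14303.

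Leaves were taken 6 h after treatment from a resistant and a susceptible line, so named after the phenotype in the labels and titled KCTR and KSS, with 3 libraries in each of 16 groups. Plants sprayed with atrazine or with chlorsulfuron, and untreated controls of both lines, formed batch 2. Plants sprayed with 2,4-D or with mesotrione and their own untreated controls formed batch 1, and plants sprayed with lactofen and theirs formed batch 3. The plants were grown from seed in a growth chamber, and the labels give no age, no dose and no genotype beyond the phenotype. The titles carry plant numbers, 5, 7 and 8 for the resistant and 5, 6 and 7 for the susceptible line in batches 1 and 2, and 1, 4 and 8 and 3, 5 and 7 in batch 3. The sources used here do not say whether the same number in 2 groups is the same plant, so p-values measure the spread between these libraries. Libraries held 44999718 to 62829178 counts in batch 2, and 16583010 to 72979429 over the whole series. The files do not pair identifiers with gene names and no annotation was used, so the functions of these genes, their sequences and the leaf markers were not looked at, and few identifiers are printed. In bulk leaf RNA, more RNA per cell and more cells of one type cannot be told apart.

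Atrazine is a triazine that binds the D1 protein of photosystem II, where it displaces plastoquinone and stops light-driven electron transport. Blocked electron flow deprives the chloroplast of reducing power and ATP, and excess light energy then gives rise to reactive oxygen. The other sprays act elsewhere. 2,4-D is a synthetic auxin, and chlorsulfuron blocks acetolactate synthase, which makes branched-chain amino acids. Lactofen blocks protoporphyrinogen oxidase in the chlorophyll pathway, and mesotrione blocks 4-hydroxyphenylpyruvate dioxygenase, which is needed to make plastoquinone and tocopherols. Plants can resist atrazine through a changed D1 protein or by conjugating the herbicide to glutathione.

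Few of the genes that rose by the atrazine limit met the rest of the rule. Of 1781 genes with an atrazine difference of at least 0.8, the 127 members were 7.13%. Lactofen removed the most, since 1336 of the 1781 had a lactofen difference of 0.5 or more and 146 had one of -0.5 or less. Chlorsulfuron was at least 0.5 away from 0 for 1228 of them, in the positive direction for 1143, and 2,4-D for 839, in the positive direction for 800. The order was the same over all 14303 genes. There 9888 were at least 0.5 away from 0 after lactofen, 7296 after chlorsulfuron and 3512 after 2,4-D. At 0.5 or more were 31.1%, 28.9% and 13.4% of all genes. Lactofen alone kept out 259 genes, chlorsulfuron alone 73 and 2,4-D alone 47. The lower limit falls inside a continuous range of values: the last member had an atrazine difference of 0.801, the first gene outside had 0.796, and 51 genes that met every other condition lay between 0.7 and 0.8. On the other limits, the largest difference inside was 0.499 after 2,4-D, 0.4996 after chlorsulfuron and 0.494 after lactofen, against 0.502 after 2,4-D, 0.5002 after chlorsulfuron and 0.508 after lactofen for the nearest gene outside.

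After atrazine the typical member stood at about 2 times its untreated level in each line. The atrazine difference had a median of 1.04 and ran up to 3.14 on the log2(CPM + 1) scale, a scale that understates the change of genes with few counts. It reached 1 in 68 members, 1.5 in 19 and 2 in 5. In the resistant line the median was 1.07 (range 0.26 to 2.99), and in the susceptible line 1.11 (0.57 to 3.29). Because atrazine chose these genes, the values are a description and carry no test. The members took up 1.69% to 1.98% of the counts in atrazine libraries of the resistant line and 1.57% to 1.97% in those of the susceptible line, against 0.727% to 0.843% and 0.726% to 0.787% in the untreated libraries of batch 2.

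All 6 atrazine libraries showed the shift. In the resistant line, the median member stood 0.98, 1.12 and 1.14 above the mean of the untreated libraries in plants 5, 7 and 8. In the susceptible line it stood 0.97, 1.21 and 1.11 above in plants 5, 6 and 7. The plants of batch 2 left untreated lay between -0.05 and 0.09. The median of all 14303 genes lay between -0.15 and -0.03 in the same 6 atrazine libraries. Susceptible libraries 6 and 7 of batch 2 were closer to each other than to library 5. Over all genes, their atrazine changes correlated at 0.96, against 0.75 and 0.76 for the pairs with library 5. Whether they are related plants is not given in the labels, and the number of independent plants in that group may be lower than 3. The 3 atrazine libraries were above the 3 untreated libraries for 117 members in the resistant line and 121 in the susceptible line, and for 114 in both, where the same held for 24.3%, 24.8% and 17.7% of all genes.

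**Figure D1:**
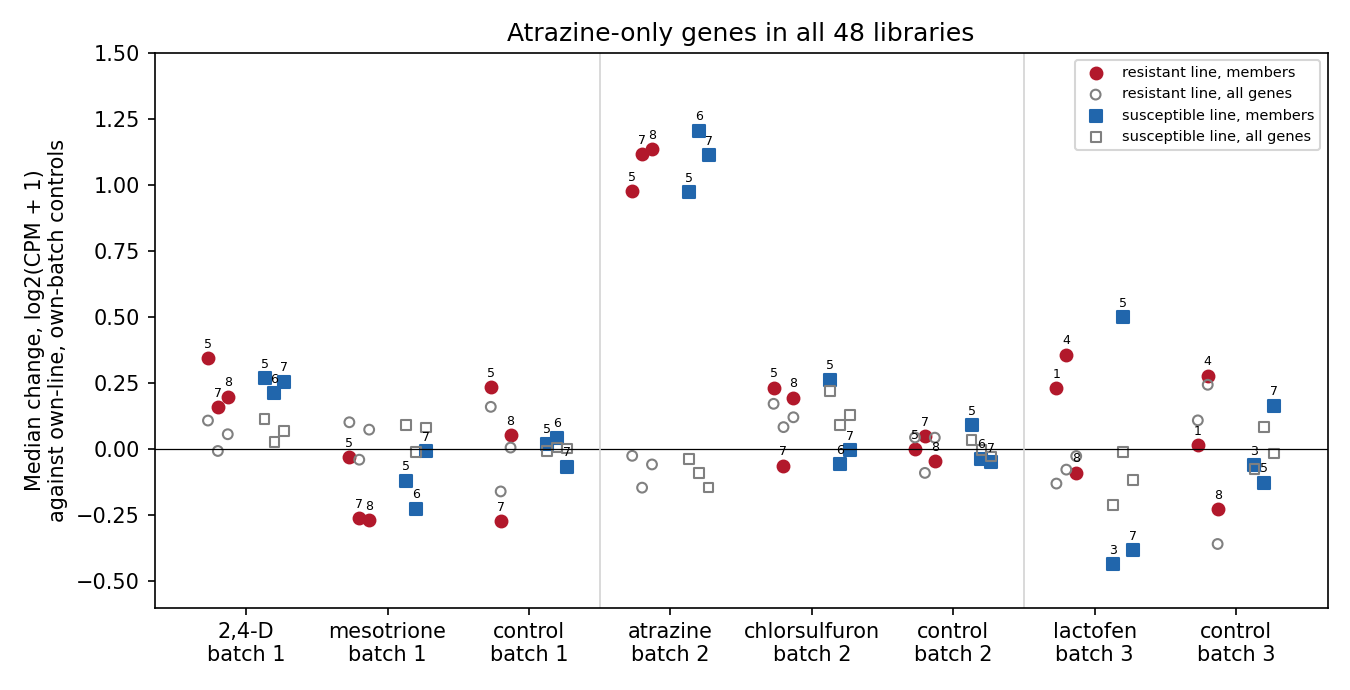
Median change of the 127 members (filled) and of all 14303 genes past the level conditions (open) in each of the 48 libraries, as log2(CPM + 1) minus the mean of the untreated libraries of the same line and batch, with plant numbers above the points. The 6 atrazine libraries sit between 0.97 and 1.21, and the other libraries between -0.44 and 0.50.

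The strongest member, AmaPaChr02Ag046800 on chromosome 2 by its identifier, had 210, 200 and 159 CPM in atrazine plants 5, 7 and 8 of the resistant line, against 26.6, 39.5 and 11.1 CPM in the untreated ones. Susceptible atrazine plants 5, 6 and 7 had 222, 58.1 and 115 CPM, against 20.4, 5.06 and 11.7 CPM in untreated plants. The groups did not overlap in either line, and in the 14 other groups of the series its means stayed between 9.10 and 37.9 CPM. Fitted with edgeR, its log2 change was 3.22 ± 0.44 (SE), a value given as a description because atrazine chose the gene. The second, AmaPaChr04Ag067810 on chromosome 4, had 65.7, 309 and 95.1 CPM after atrazine in the resistant line, against 16.0, 29.5 and 10.8 CPM untreated. The susceptible line had 47.9, 58.6 and 57.7 CPM after atrazine, against 17.8, 10.4 and 15.5 CPM untreated. Its highest value came from 1 resistant plant, and the fitted change was 2.58 ± 0.32, or 2.07 without that plant's atrazine library. The member at the median of the list was far more abundant and varied less. It had 307, 319 and 368 CPM after atrazine in the resistant line, against 161, 168 and 158 CPM untreated, and 378, 310 and 297 CPM after atrazine in the susceptible line, against 193, 147 and 136 CPM untreated.

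**Figure D2:**
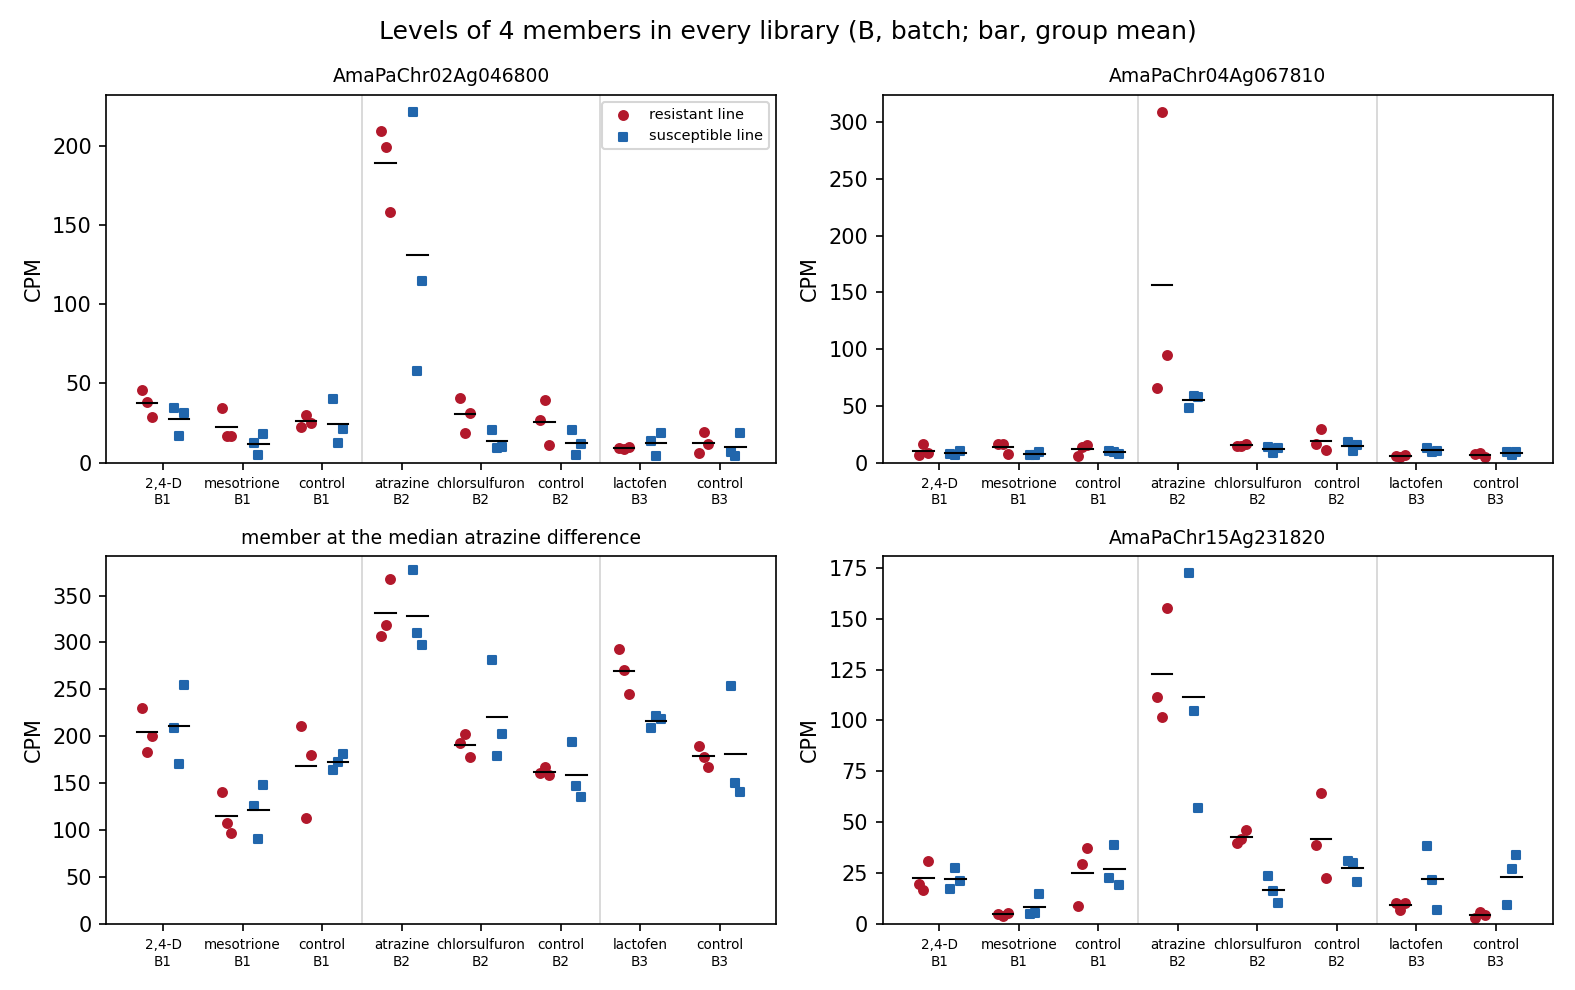
CPM of 4 members in every library (points) with the group mean (bar): the strongest and second strongest after atrazine, the member at the median atrazine difference, and AmaPaChr15Ag231820, which was lower after mesotrione. In each panel the highest group mean belongs to an atrazine group.

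Members were found at low and at high untreated levels. Untreated means of the members ran from 2.82 to 763 CPM with a median of 33.1 CPM, against 25.8 CPM for all 14303 genes. The median atrazine difference was 0.95 for the 19 members under 10 CPM, 1.06 for the 58 from 10 to 50 CPM, 1.05 for the 29 from 50 to 100 CPM and 1.04 for the 21 above. Across members, Pearson's r between the atrazine difference and log2 of the untreated level was 0.02. The rule cut the atrazine difference at 0.8, which narrows its range at every level, and genes of the same libraries are not independent replicates, so no relation is read from these values.

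Fitted with edgeR's quasi-likelihood test and called at a Benjamini-Hochberg adjusted p under 0.05 over 20645 genes, 125 of the 127 members were higher after atrazine over both lines, where 26.6% of all genes tested were. Line by line, 110 were higher in the resistant line (16.4% of all genes) and 118 in the susceptible line (20.6%). The median fitted log2 change of the members was 1.17 over both lines, 1.16 in the resistant and 1.26 in the susceptible line, against 0.04, 0.00 and 0.07 for all genes. Without the susceptible libraries numbered 7 of batch 2, 124 members were higher over both lines and 99 in the susceptible line. The rule used this contrast, so nothing is read from these counts.

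The atrazine libraries were set only against the controls of batch 2 in the rule, and the controls of the other batches give a view of how far the values rest on that choice. Against batch 1 controls the members' median difference was 1.12 (range 0.27 to 2.94). All 127 were above 0 and 108 at 0.8 or more, against 46.7% and 15.2% of all genes. Against batch 3 controls the median was 1.24 (-0.27 to 3.79). There 126 were above 0 and 103 at 0.8 or more, against 59.9% and 23.6% of all genes. Batch and treatment cannot be told apart in these differences. The members were also chosen for high values in these same atrazine libraries. Shares above those of all genes follow largely from that choice, so nothing is read from them. The untreated plants also differed between batches, in both directions. The member difference for batch 2 minus batch 1 had a median of 0.05 (range -0.65 to 1.38), against 0.03 for all genes. Of the members 73 were above 0 and 2 at 0.8 or more, against 55.1% and 1.2% of all genes. For batch 2 minus batch 3 the member median was 0.13 (-1.16 to 1.66), against 0.31 for all genes. Here 82 members were above 0 and 7 at 0.8 or more, against 74.1% and 14.5% of all genes. Chlorsulfuron was sprayed in the same batch as atrazine, so the treated leaves can be set against each other directly. Atrazine minus chlorsulfuron had a median of 0.98 over the members, 0.93 in the resistant and 1.05 in the susceptible line, against -0.22 over both lines for all genes. The rule's limits on both herbicides already place this difference, over both lines, above 0 in every member.

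Seen over all 48 libraries, 43 members had their lowest atrazine library above every one of the 42 other libraries, where 1.52% of all genes did. For 119 members the mean over the 6 atrazine libraries exceeded the mean of each of the 14 other groups, against 11.3% of all genes. The lowest atrazine library was above all 18 untreated libraries for 72 members, against 9.51% of all genes, and above all 6 chlorsulfuron libraries for 80, against 6.4%. These shares describe what the rule selected.

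The difference between the lines was not used by the rule, and no member passed the test for a different atrazine response. In the interaction contrast (resistant response minus susceptible response), edgeR called 0 of 127 members, where 0 of all genes tested were called higher and 0.00969%, or 2 genes, lower. At an unadjusted p under 0.05 it gave 1 member higher and 8 lower, against 1.13% and 2.98% of all genes. DESeq2 also called 0. The larger response was in the resistant line for 56 members and in the susceptible line for the others. Among the 5561 genes above 0 in both lines after atrazine, it was in the resistant line for 45.1%. The lines were at least 1 apart on the log2(CPM + 1) scale for 3 members, against 2.99% of all genes. Across the 127 members the resistant and susceptible atrazine differences had a Pearson's r of 0.58 and a Spearman's rho of 0.40, a description across genes whose range the rule had cut at the low end.

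**Figure D3:**
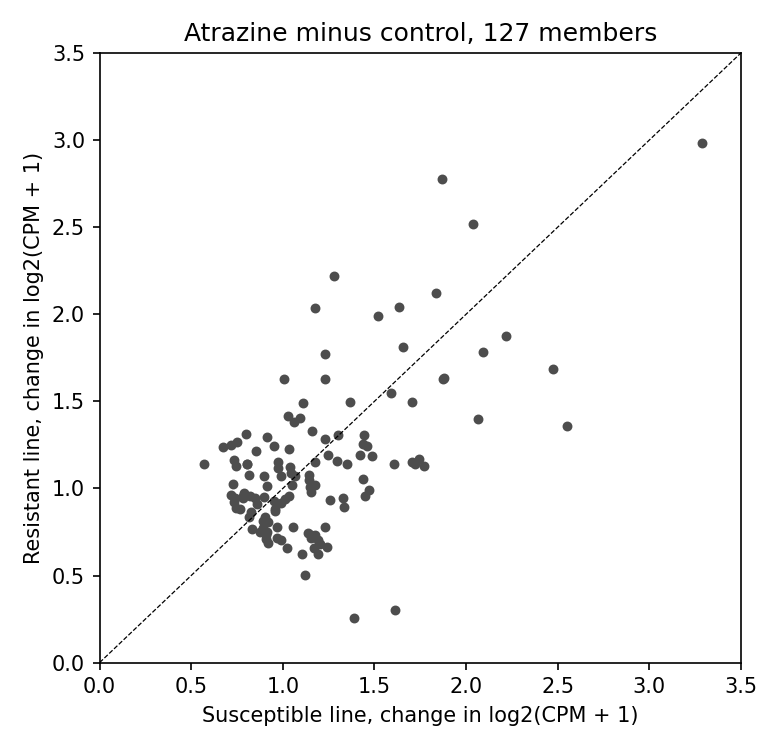
Atrazine minus untreated difference in log2(CPM + 1) of each of the 127 members, resistant line on the vertical and susceptible line on the horizontal axis, with the line of equal response dashed. Every member is above 0 in both lines, and 56 lie above the dashed line.

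The pair with the smallest unadjusted p of that contrast had the larger difference in the susceptible line. AmaPaChr13Ag205860 had 9.18, 9.64 and 15.4 CPM after atrazine in the resistant line, against 7.00, 8.77 and 11.1 CPM untreated. Susceptible plants had 31.7, 27.9 and 30.6 CPM after atrazine, against 10.2, 8.74 and 8.65 CPM untreated. As groups, the treated and untreated libraries overlapped in the resistant and stood apart in the susceptible line, and with libraries paired by plant number the treated one was higher in all 3 resistant pairs. The difference of the responses was -1.42 ± 0.45 (SE), with an edgeR adjusted p of 0.69. AmaPaChr15Ag228150 had 6.73, 7.33 and 8.31 CPM after atrazine in the resistant line, against 5.92, 6.84 and 5.47 CPM untreated. The susceptible line had 7.94, 17.5 and 17.6 CPM after atrazine, against 5.44, 4.31 and 3.98 CPM untreated. Here too the treated library was higher in all 3 resistant pairs. Its difference of responses was -1.43 ± 0.51, with an edgeR adjusted p of 0.82, so neither gene passed the test.

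In untreated plants few members were called different between the lines. Over the mean of the 3 batches, edgeR called 2 members higher in the resistant line and 0 lower, where 1.91% and 1.14% of all genes were called. At an unadjusted p under 0.05, 14 members were higher and 2 lower, against 9.59% and 6.72% of all genes. DESeq2 called 3 higher and 0 lower, and the share of all genes it called is not given. The median fitted difference was 0.04 for the members and 0.01 for all genes. AmaPaChr05Ag092690 had 11.7, 6.08 and 10.1 CPM in resistant and 5.57, 4.92 and 4.47 CPM in susceptible controls of batch 1, and 7.24, 7.63 and 9.45 against 6.14, 4.71 and 5.86 CPM in batch 2. In batch 3 it had 4.18, 7.05 and 2.31 CPM in resistant and 2.33, 3.08 and 4.68 CPM in susceptible controls. The groups stood apart in batches 1 and 2 and overlapped in batch 3. Its difference was 0.60 ± 0.17 (SE), with an edgeR adjusted p of 0.042. AmaPaChr14Ag220840 had 19.4, 16.7 and 17.6 CPM in resistant and 11.6, 13.4 and 15.0 CPM in susceptible controls of batch 1. It had 20.4, 19.5 and 24.4 against 13.9, 16.5 and 14.2 CPM in batch 2, and 13.8, 12.9 and 9.74 against 6.64, 13.0 and 7.74 CPM in batch 3. Its difference was 0.47 ± 0.14, with an edgeR adjusted p of 0.047. Both calls were close to the limit. The first was kept only without resistant control 7 of batch 1, resistant controls 1 or 8 of batch 3, susceptible control 5 of batch 1 or susceptible control 7 of batch 3. The second was kept only without susceptible control 7 of batch 1 or 5 of batch 3. Either call was lost without any other single untreated library, in each batch taken alone, with total counts in place of TMM factors and with no filter on low counts. Plant numbers recur in the controls of batches 1 and 2, which the fit takes as separate plants. With untreated counts summed per plant number both calls were lost, with edgeR adjusted p of 0.35 and 0.23.

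Mesotrione was the herbicide the rule did not use, and there the members lay slightly below their untreated level. Their difference after mesotrione had a median of -0.14 on the log2(CPM + 1) scale, -0.18 in the resistant and -0.13 in the susceptible line, and 104 of 127 were below 0, where 40.8% of all 14303 genes were. It ran from -1.84 to 0.54. At -0.5 or lower were 11 members, or 8.66%, against 6.95% of the other genes that met the atrazine limit and 2.38% of all genes. In the resistant line the median member stood at -0.03, -0.26 and -0.27 in mesotrione plants 5, 7 and 8, against 0.24, -0.27 and 0.05 in untreated plants 5, 7 and 8. In the susceptible line it stood at -0.12, -0.23 and -0.01 in mesotrione plants 5, 6 and 7, against 0.02, 0.04 and -0.07 untreated. The treated libraries thus overlapped the untreated ones in the resistant line, and in the susceptible line plant 7 did. The median of all 14303 genes also moved between these libraries. In the resistant line it was 0.10, -0.04 and 0.07 in mesotrione plants 5, 7 and 8, against 0.16, -0.16 and 0.01 untreated. In the susceptible line it was 0.09, -0.01 and 0.08 in mesotrione plants 5, 6 and 7, against -0.01, 0.01 and 0.002 untreated. The median member lay below it in every mesotrione library, and on either side of it in the untreated ones. The 3 mesotrione libraries were below all 3 untreated libraries for 13 members in the resistant line (3.3% of all genes), for 14 in the susceptible line (4%) and for 4 in both (0.378%).

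Gene by gene, few of these differences passed the test. edgeR called 1 member lower after mesotrione over both lines and 0 higher, where 0.063% of all genes tested were lower and 0.00484% higher, and DESeq2 called 3 lower and 0 higher. At an unadjusted p under 0.05, edgeR gave 27 members lower, against 4.39% of all genes, and 0 higher, against 2.38%. The median fitted log2 change was -0.21 for the members and -0.02 for all genes, and 112 members were below 0, against 53.6% of all genes. In the resistant line 1 member was called lower (0.203% of all genes), and 0 higher (0% of all genes). At an unadjusted p under 0.05, 14 were lower and 0 higher, against 2.89% and 1.57% of all genes. DESeq2 called 1 lower and 0 higher. In the susceptible line 0 members and 0% of all genes were called by edgeR, DESeq2 called 0 members, and 12 were lower and 1 higher at an unadjusted p under 0.05, against 2.14% and 1.53% of all genes. The share of all genes that DESeq2 called is not given, so its counts are not read as particular to the members. The mesotrione libraries share their controls with the 2,4-D comparison, which the rule used.

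The called member was AmaPaChr15Ag231820 on chromosome 15. It had 4.81, 3.99 and 5.18 CPM after mesotrione in the resistant line, against 8.93, 29.5 and 37.1 CPM untreated. Susceptible plants had 4.82, 5.39 and 14.6 CPM after mesotrione, against 22.4, 38.7 and 19.1 CPM untreated. The groups did not overlap in either line. The log2 change was -2.15 ± 0.39 (SE) over both lines, with an edgeR adjusted p of 0.039, and -2.52 ± 0.56 in the resistant line alone, with an adjusted p of 0.033. The first call was kept only without resistant control 5, susceptible control 5 or susceptible mesotrione plant 7, and lost without any other single library of the comparison. It was also lost with batch 1 fitted alone and with total counts. Over all these left-out libraries the edgeR adjusted p ran from 0.0057 to 0.18. The second was kept only without resistant control 5, and was lost with batch 1 alone and with plant number as a block (edgeR adjusted p 0.17). After atrazine this gene had 111, 101 and 155 CPM in the resistant line, against 38.8, 64.4 and 22.4 CPM untreated, and 172, 105 and 57.1 CPM in the susceptible line, against 30.7, 30.1 and 20.8 CPM untreated. It also varied between batches without treatment, from 2.91 to 5.62 CPM in the resistant controls of batch 3.

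Other genes that rose after atrazine lay closer to 0 after mesotrione than the members. The 1654 genes that met the atrazine limit but not the others had a median mesotrione difference of -0.05, and 59.1% were below 0. An unadjusted edgeR p under 0.05 with a lower value was found for 21.3% of the members, 9.85% of these 1654 genes and 4.86% of all 14303. Among the 1654, the 85 that were at or below -0.5 after chlorsulfuron had a median of -0.28 after mesotrione, with 82.4% below 0, and the 1143 that were at or above 0.5 had a median of -0.02. The 146 at or below -0.5 after lactofen had a median of -0.21. The 39 at or below -0.5 after 2,4-D, which shares the controls of mesotrione, had a median of -0.40, with 84.6% below 0. By the median, each of these lowered sets lay further below 0 than the members, which had -0.14. The sets at or above 0.5 after chlorsulfuron, lactofen or 2,4-D lay closer to 0 than the members. Depth moved with the contrast: mesotrione libraries held 16583010 to 30046691 counts, against 19414318 to 72979429 in the untreated libraries of batch 1. Among these the shallowest, resistant control 7, had a median member at -0.27 and the deepest, resistant control 5, at 0.24. The median of all 14303 genes was -0.16 in resistant control 7 and 0.16 in resistant control 5. In the resistant line the median member stood at -0.26 in the deepest mesotrione library and at -0.03 in the shallowest. In the susceptible line it stood at -0.23 in the deepest mesotrione library and at -0.12 in the shallowest. The deepest susceptible control had -0.07 and the shallowest 0.02. The part of depth in the result was not tested.

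**Figure D4:**
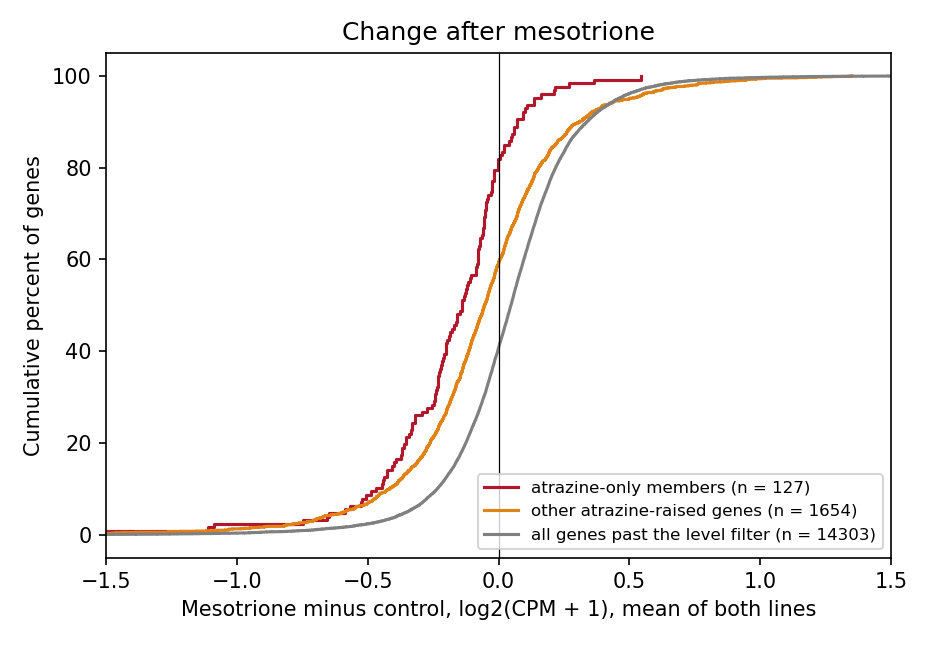
Cumulative percent of genes by their difference after mesotrione, as log2(CPM + 1) minus untreated and averaged over both lines, for the 127 members, the 1654 other genes that met the atrazine limit and all 14303 genes past the level conditions. The member curve lies to the left of the others, with a median of -0.14 against -0.05 and 0.05; values beyond 1.5 in either direction are not drawn.

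The remaining herbicides set the limits of the rule, and the members' values within those limits are a description. After 2,4-D the members had a median difference of 0.26, with 108 above 0, where the median of all genes was 0.06 and 56.2% were above 0. The median member stood at 0.35, 0.16 and 0.20 in 2,4-D plants 5, 7 and 8 of the resistant line and at 0.27, 0.21 and 0.26 in plants 5, 6 and 7 of the susceptible line. For 12 members the 2,4-D libraries were above the untreated ones in both lines (9.12% of all genes) and for 0 below (5.96%). edgeR called 4 members higher and 0 lower over both lines, where 8.58% and 7.65% of all genes were called, and at an unadjusted p under 0.05 it gave 19 higher and 1 lower, against 13.8% and 14.7%. DESeq2 called 6 higher and 0 lower. The edgeR count was 1 or 2 without any one of 11 of the 12 libraries compared and 5 without resistant control 5. It was 12 with batch 1 fitted alone, 2 with no filter on low counts and 0 with a 2-fold minimum. The share of all genes called by DESeq2 or under these other settings is not given. These counts are therefore not read as particular to the members.

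After chlorsulfuron the median difference was 0.13, within limits the rule had set, and 0.14 for all genes. It varied between plants, with the median member at 0.23, -0.06 and 0.20 in chlorsulfuron plants 5, 7 and 8 of the resistant line and at 0.26, -0.06 and -0.0041 in plants 5, 6 and 7 of the susceptible line. Treated and untreated libraries stood apart in both lines for 13 members above (27.5% of all genes) and 2 below (16.2%). edgeR called 6 members higher and 10 lower, where 25.6% and 21.1% of all genes were called. With total counts in place of TMM factors, 13 members were called higher and 6 lower. The median change of all genes moved from 0.05 to 0.15 with that scaling. Without susceptible chlorsulfuron plant 6 or plant 7 the number called fell to 8 or 9. The share of all genes called is not given for these other settings, so the moves are not read as particular to the members.

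After lactofen the lines differed in the sign of the median. The median difference over both lines was 0.05, made up of 0.19 in the resistant and -0.15 in the susceptible line. Lactofen libraries were above the untreated ones in both lines for 0 members (21% of all genes) and below for 1 (24.4%). edgeR called 12 members higher and 13 lower over both lines, where 33.7% and 33.8% of all genes were called, and with the size factors of DESeq2 in the same test 18 were higher and 6 lower. With batch 3 fitted alone the count was 2, and without resistant control 4 it was 16. The share of all genes called is not given for these alternative settings, so the moves are not read as particular to the members. The lines had opposite signs for 62 members, and the resistant difference was the larger for 94. Among the 4288 other genes within 0.5 of the untreated level after lactofen, 39.9% had opposite signs and the resistant line was the larger for 49.3%. The limit on the mean of both lines favours opposite signs, so these other genes, which met the same limit, are set beside the members.

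The difference of the lactofen response between the lines was called by edgeR for 1 member higher and 1 lower, where 1.09% and 1.18% of all genes were called. AmaPaChr07Ag118550 had 55.3, 63.3 and 43.0 CPM after lactofen in plants 1, 4 and 8 of the resistant line, against 31.1, 31.8 and 27.3 CPM untreated. In the susceptible line it had 18.6, 39.5 and 21.9 CPM in lactofen plants 3, 5 and 7, against 34.2, 28.2 and 32.8 CPM untreated. The groups stood apart in the resistant line, while in the susceptible line plant 5 was above and plants 3 and 7 were below the controls. Its difference of responses was 1.05 ± 0.27 (SE), with an edgeR adjusted p of 0.028. AmaPaChr10Ag169280 went the other way, with 7.82, 9.42 and 7.84 CPM after lactofen in the resistant line, against 8.96, 14.6 and 7.12 CPM untreated. Susceptible plants had 13.7, 17.0 and 10.9 CPM after lactofen, against 8.71, 5.84 and 9.44 CPM untreated. Its difference was -1.09 ± 0.29, with an edgeR adjusted p of 0.037. With plant number as a block, 3 members were called higher and 2 lower, where 2.64% and 2.54% of all genes were, although the numbers did not pair the susceptible lactofen plants. Both calls were lost with batch 3 fitted alone, with edgeR adjusted p of 0.55 and 0.57. They were lost as well when library totals replaced the TMM factors, and the second also with no filter on low counts. The first call was lost without lactofen plant 1 or 4 or control 1 or 4 of the resistant line, or lactofen plant 3 or 7 or control 3 or 7 of the susceptible line. The second was lost without lactofen plant 1 or 8 or control 4 of the resistant line, or lactofen plant 3 or control 5 of the susceptible line.

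A single library stood apart within the lactofen group of the susceptible line, over all genes as well as over the members. Over all genes, the lactofen changes of plant 5 correlated at 0.84 with plant 3 and at 0.82 with plant 7. Plants 3 and 7 correlated at 0.96. The median member was 0.50 above the untreated mean in plant 5, and 0.44 and 0.38 below it in plants 3 and 7. With no control in the difference, plant 5 exceeded the mean of plants 3 and 7 by a median of 0.92 over the members, and was higher for 109 of 127. Over the 4288 other genes within 0.5 of the untreated level after lactofen that median was 0.06, with 53.9% higher in plant 5, and over all genes it was 0.17, with 58.2% higher. Plant 5 was at least 1 above both other plants for 49 members, or 38.6%, against 7.91% of those 4288 genes and 13.9% of all genes. In the untreated plants of batch 3, the library numbered 5 lay below the mean of numbers 3 and 7 for the members, with a median of -0.19, where all genes had 0.12. The choice of members used these libraries through their mean over both lines, so the split between them is a description and has no test.

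**Figure D5:**
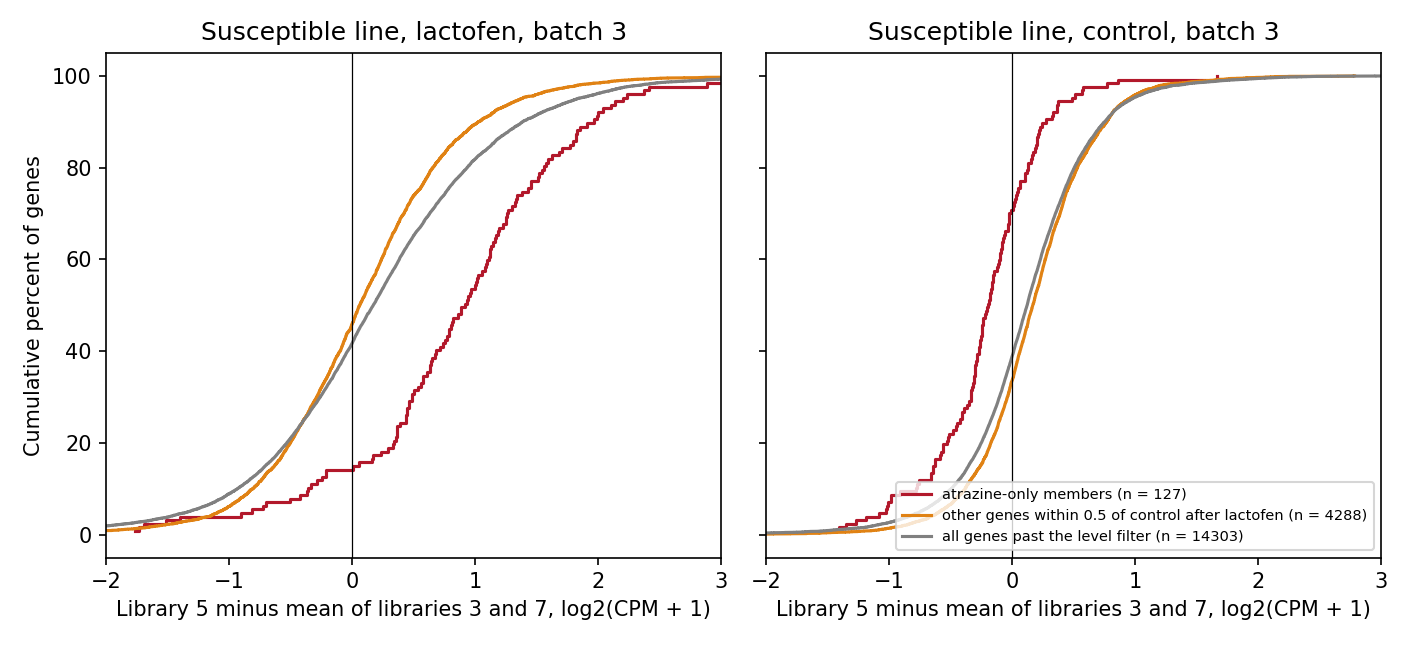
Cumulative percent of genes by the value of library 5 minus the mean of libraries 3 and 7 in log2(CPM + 1), in lactofen plants (left) and untreated plants (right) of the susceptible line in batch 3, for the members, the 4288 other genes within 0.5 of the untreated level after lactofen, and all 14303 genes. The member curve lies to the right after lactofen, with a median of 0.92, and to the left in untreated plants, with a median of -0.19.

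Leaving that library out moved both lactofen counts more than leaving out any other library of the comparison. Without it, 26 members differed in their lactofen response between the lines, 23 of them higher in the resistant line, in place of 2 in all, where edgeR then called 7.4% of all genes higher and 5.33% lower. The number called after lactofen over both lines became 38, 5 higher and 33 lower, in place of 25, where 33.1% of all genes were then called higher and 34.7% lower. The members not counted did not pass that test. The choice of members had used susceptible lactofen library 5, so nothing is read from these counts. Which of the 3 libraries represents the susceptible line cannot be told from these data.

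The members were spread over the genome as far as their identifiers tell, which carry a chromosome number. Between 2 and 13 fell on each of chromosomes 1 to 17, from 0.388% of the genes past the level conditions on chromosome 12 to 1.52% on chromosome 13. A single pair of members was adjacent in the order of identifiers, on chromosome 6, with atrazine differences of 0.98 and 0.90. These 2 genes, or 1.57% of the members, were also the only ones with another member within 3 gene models, where 1.27% of all genes had a member next to them and 3.38% within 3. Within 5 gene models the shares were 11.0% (14 members) and 5.26%, so the order of the shares changed with the distance. Near-identical or overlapping genes could share reads in the authors' counting, so the values of close neighbours are not certain to be separate.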

How the data were processed

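Per the labels' protocols, the libraries were stranded, polyA-selected and paired-end. Trimmomatic, FastQC, STAR and DESeq2 appear in the submitters' processing notes without versions, while genome build, annotation and strand setting are not given in the sources consulted. The deposited values are whole-number counts per gene model and library, not scaled by the authors. Even numbers made up 99.1% of the counts above 0, as when both mates of a pair are counted. A row that names no gene held 0 counts and was left out.

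CPM here is the count divided by the library total, and changes by the rule are in log2(CPM + 1). The members and lists were chosen with earlier results of these data known, so calls in the contrasts the rule used are given as a description only. All comparisons used edgeR 4.0.16 (R 4.3.3) and its quasi-likelihood F test, two-sided, with TMM factors, the default filter on low counts (20645 genes kept), robust dispersions and a mean for each of the 16 groups over all 48 libraries (32 residual degrees of freedom, square root of the common dispersion 0.458). Benjamini-Hochberg adjustment ran over all 20645 genes, and all 127 members were among them. The test was tested on simulated data before use. DESeq2 1.42.0, other scalings and filters, fragment counts, batches alone, the plant number as a block and each library left out were tried as alternatives. For these, the share of all genes called is given only where it is printed beside the count. With no gene names, lists by product name could not be applied, and the rule for named genes gave the members with the highest atrazine difference and the one at the median, and in other comparisons the called members with the largest change whose higher group averaged at least 5 CPM, or else those with the smallest p. The lactofen comparison between lines, and the comparison of its susceptible libraries, were added after the data were seen.

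Same-numbered treated and untreated libraries were compared by how their deviations from their group means correlated. The correlation was at least 0.16 in every pair of 9 of the 10 comparisons within a line, so there the plant numbers of the titles were taken to pair the libraries. In lactofen plants of the susceptible line the lowest value was -0.20, and there they were not. The lactofen comparison between lines holds both kinds. The main fit left this pairing out, and plant number entered only as a block in an alternative fit. In susceptible plants of batch 2, deviations also correlated between different numbers, at up to 0.28 after atrazine and 0.40 after chlorsulfuron. To look for a library deposited under 2 names, counts were compared within groups, and no pair was near identity. This check used fragment counts (counts divided by 2 and rounded up), and it cannot tell separate from related plants. Susceptible libraries 6 and 7 of batch 2 were closest, with a mean chi-square per gene of 24.5 after atrazine, 20.7 after chlorsulfuron and 26.1 untreated, against 326 to 339, 133 to 162 and 52.6 to 56.7 for the pairs with library 5. In susceptible lactofen plants the pairs with library 5 had 407 and 424, against 97.1 for libraries 3 and 7. Resistant controls 4 and 8 of batch 3 also had 424. That control 8 had the lowest TMM factor of the series, 0.643.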

Additional observations from a re-analysis of the deposited data

Results flagged for a closer look

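Of the members, 2 were picked out because their lactofen response differed between the lines by the test of the difference itself. For AmaPaChr07Ag118550 the resistant minus susceptible response was 1.05 on the log2 scale, and for AmaPaChr10Ag169280 it was -1.09. With batch 3 fitted alone the values were 1.07 and -1.07, with edgeR adjusted p of 0.55 and 0.57.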

How the results depend on the processing

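The rule picked 116 of the 127 members again with TMM-scaled CPM (206 genes in all), 112 with a pseudocount of 0.1, 112 without the susceptible libraries numbered 7 of batch 2, and 127 with fragment counts or no CPM minimum. The members called after atrazine were 101 to 126 over both lines under every alternative, with 123 to 126 when single libraries were left out, 95 to 106 in the resistant and 110 to 115 in the susceptible line. The count whose atrazine response differed between lines was 0 under every alternative run, left-out libraries included. The median atrazine change against batch 1 controls was 1.05 to 1.19 with single libraries left out.

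Counts of members moved elsewhere. They are given here without the share of all genes called under each setting, so the moves are not read as particular to the members. After 2,4-D, 4 members became 0 with a 2-fold minimum, 12 with batch 1 alone, 2 with no filter, and 1 to 5 with single libraries left out. After chlorsulfuron, 16 became 0 with the 2-fold minimum, 9 without the susceptible libraries numbered 7, and 8 to 16 with single libraries left out. After lactofen, 25 became 1 with the 2-fold minimum, 2 with batch 3 alone, and 16 (without resistant control 4) to 38 with single libraries left out. After mesotrione over both lines, 1 became 3 with DESeq2, 0 with batch 1 alone or total counts, and 0 to 1 with single libraries left out. In the resistant line, 1 became 0 with batch 1 alone or the replicate block, and 0 to 1 with single libraries left out; in the susceptible line it was 0 to 0. Between untreated lines, 2 became 0 with the 2-fold minimum, with batch 1, 2 or 3 controls alone, with no filter, with total counts and with counts summed per plant number, 1 with fragment counts, and 0 to 2 with single libraries left out. For the lactofen response between lines, 2 became 0 with batch 3 alone or total counts, 1 with no filter, 5 with the replicate block, and 0 to 26 with single libraries left out. The block changed no other call count by over 1.5 times. The named genes kept their direction under every alternative run. The split of calls did not: after chlorsulfuron 6 higher and 10 lower became 13 and 6 with total counts, and after lactofen 12 and 13 became 18 and 6 with DESeq2 size factors, and 5 and 33 without susceptible lactofen library 5. The causes of these moves were not tested. Depth was lowest in batch 1, down to 16583010 counts in a susceptible mesotrione library. The deepest library of the series, with 72979429 counts, was in batch 1 as well. The part of depth in these moves was not tested.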
